A study of Oryza sativa with 12 samples.

Results

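The genes of rice chromosome 12 were followed along their order in spikelets of a pair of rice (Oryza sativa) cultivars, each at a control and a high daytime temperature. Members were all listed genes whose ID starts with MH12g and whose counts passed edgeR's filterByExpr function with its default settings over the 4 groups, kept in ID order. That left 1209 of 3536 listed chromosome 12 genes (34.2%), out of 22321 tested genes in the whole series. Of the remainder, 1497 had 0 counts in all 12 libraries and 830 had some counts but fell below the filter. On the other chromosomes 21112 of 53638 listed genes (39.4%) were tested.

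IRGA 428, described in the labels as sensitive to heat, and BR-IRGA 409, described as tolerant, were kept at 29 °C (control) or 38 °C (treated) for 7 h a day on 3 days at anthesis. Each of the 4 groups held 3 libraries, each from 2 plants, sampled as spikelets of the mid-panicle when the treatment ended. The plants were grown flooded and no transgene or other agent is named. The IDs are not paired with gene names, so the tissue label could not be checked against marker genes and no function is given to any ID. The digits after MH are read here as the chromosome number, an assumption, and the ID order is taken as the order along the chromosome.

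A spikelet is the flowering unit of the rice panicle, and anthesis, when the flower opens and sheds pollen, is a stage at which heat is known to harm pollination and grain set. Rice cultivars differ in single bases and also in which genes they carry, so a gene annotated in a reference genome may be missing from a cultivar or too different in sequence for its reads to align. One end of chromosome 12 is also known to share a duplicated segment with chromosome 11, and reads that align to several places stand outside the gene counts used here.

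Depth ran from 7.08 to 75.4 M gene counts per library (M, 1000000 counts), of which 343 to 3587 K (K for kilo) lay on chromosome 12. All treated libraries were deeper than all control libraries of their cultivar. Mean depth was 13.7 ± 4.18 M (SD, n = 3) and 21.4 ± 5.27 M in IRGA 428 at 29 and 38 °C, and 10.0 ± 4.29 M and 53.4 ± 19.3 M in BR-IRGA 409. The files of BR-IRGA 409 alone carry the word new in their names. Its meaning is not given, and whatever it marks cannot be told apart from cultivar. On the members, the root mean square difference in log2 CPM (counts per 1000000, on scaled library sizes) was 0.328 to 0.910 between libraries of the same group. It was 0.411 to 1.11 between temperatures of 1 cultivar and 1.45 to 1.86 between cultivars. The smallest difference between temperatures, 0.411, was that of IRGA 428 control 3 and treated 1. Each was closer to the other than to any library of its own group. Control 3 differed by 0.910 and 0.803 from the other IRGA 428 controls, and treated 1 by 0.676 and 0.666 from the other treated libraries. In whole spikelets, fewer cells of a type and less RNA per cell cannot be told apart.

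Most members were measured at moderate read levels. Mean CPM over the 12 libraries was below 1 for 90 members, 1 to 10 for 455, 10 to 100 for 577 and 100 or more for 87. CPM is not corrected for gene length, so it is compared here only between libraries for the same gene. The member with the most reads was MH12g0174100, which at 29 °C had a mean of 1967 CPM in IRGA 428 and of 3964 CPM in the other cultivar. Its cultivar difference was called at 29 °C (log2 difference 1.01, SE 0.22, edgeR adjusted p = 0.0248) and not at 38 °C (0.77, SE 0.22, edgeR adjusted p = 0.0657). The next, MH12g0456300, had no called difference and lay between 1238 and 3224 CPM in the 12 libraries.

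The share of gene counts taken by chromosome 12 was lower at 38 °C. In IRGA 428 it was 4.83% ± 0.0985 (SD, n = 3) at 29 °C, between 4.73 and 4.93%, and 4.68% ± 0.0481 at 38 °C, between 4.62 and 4.71%. In BR-IRGA 409 it was 4.89% ± 0.0377, between 4.84 and 4.92%, and 4.72% ± 0.118, between 4.58 and 4.81%. The temperatures did not overlap in either cultivar. Chromosome 12 was the only 1 of the 12 chromosomes whose treated libraries lay below all control libraries in both cultivars, a comparison chosen after the values were seen and not tested. MH12g0174100 and MH12g0456300 together held 6.92 to 12.6% of the chromosome's counts. Without them the shares were 4.39 to 4.49% and 4.14 to 4.34% in IRGA 428, and 4.29 to 4.38% and 4.05 to 4.28% in BR-IRGA 409. The treated libraries still lay below the controls.

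The cultivars differed on chromosome 12 at both temperatures. At 29 °C 153 members (12.7%) passed edgeR's quasi-likelihood test, at an adjusted p below 0.05, against 4.05% of all tested genes and 3.55% of those elsewhere. By direction, IRGA 428 had the higher level for 95 members (7.86%, against 2.15% of all tested genes) and BR-IRGA 409 for 58 (4.8%, against 1.9%). At 38 °C 190 members (15.7%) were called, 113 higher in IRGA 428 and 77 in BR-IRGA 409, against 6.53% of all tested genes (3.43% and 3.1% by direction) and 6.01% elsewhere. The replicate numbers went with shared deviations at 29 °C, and with the replicate number as a block in a fit of those libraries alone 81 members (6.7%, against 1.51% elsewhere) were called there. That fit without the block called 100 (8.27%, against 1.75% elsewhere). The chromosome was taken up with earlier counts from these data known, so its high share is a description.

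Most of these differences were called at both temperatures. In the same direction at both were 134 members (11.1%), 84 higher in IRGA 428 and 50 in BR-IRGA 409, against 3.36% of all tested genes (1.88% and 1.48% by direction) and 2.92% elsewhere. In fits of the compared libraries alone the count was 94 (7.78%, against 1.58% elsewhere). With the replicate block in those fits it was 61 (5.05%, against 1% elsewhere). That block also entered at 38 °C, where same-numbered libraries correlated at −0.334, −0.357 and 0.112. The blocks, segments and runs described further on rest on the 134. The 134 made up 87.6% of the members called at 29 °C and 70.5% of those called at 38 °C, against 82.1% and 48.6% elsewhere. In opposite directions 0 members were called, and 1 gene elsewhere. In 115 of the 134 the difference was at least 2-fold at both temperatures, as in 490 of 616 elsewhere. Of the 19 called only at 29 °C, 18 had the same sign at 38 °C (117 of 133 elsewhere), and of the 56 called only at 38 °C, 53 had the same sign at 29 °C (573 of 651 elsewhere).

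Among all members, called or not, the median size of the log2 difference was 0.237 at 29 °C and 0.265 at 38 °C, against 0.174 and 0.224 for genes elsewhere. Called members that were higher in BR-IRGA 409 had a median log2 difference of 2.35 at 29 °C and 2.04 at 38 °C, against 1.97 and 1.61 over all called genes. Called members that were higher in IRGA 428 had medians of −3.49 and −2.76, against −2.34 and −1.73. These medians are set partly by genes with next to no counts in a cultivar, whose fitted difference depends on the prior count.

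The share called at both temperatures differed widely between chromosomes. After chromosome 12, with 11.1%, came chromosome 11 with 6.13%, chromosome 10 with 5.03%, chromosome 4 with 4.8% and chromosome 2 with 4.02%. Chromosome 7 had 0.698%. For heat in BR-IRGA 409 the chromosomes were close to each other, at 10.4 to 13.3%.

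**Figure D1:**
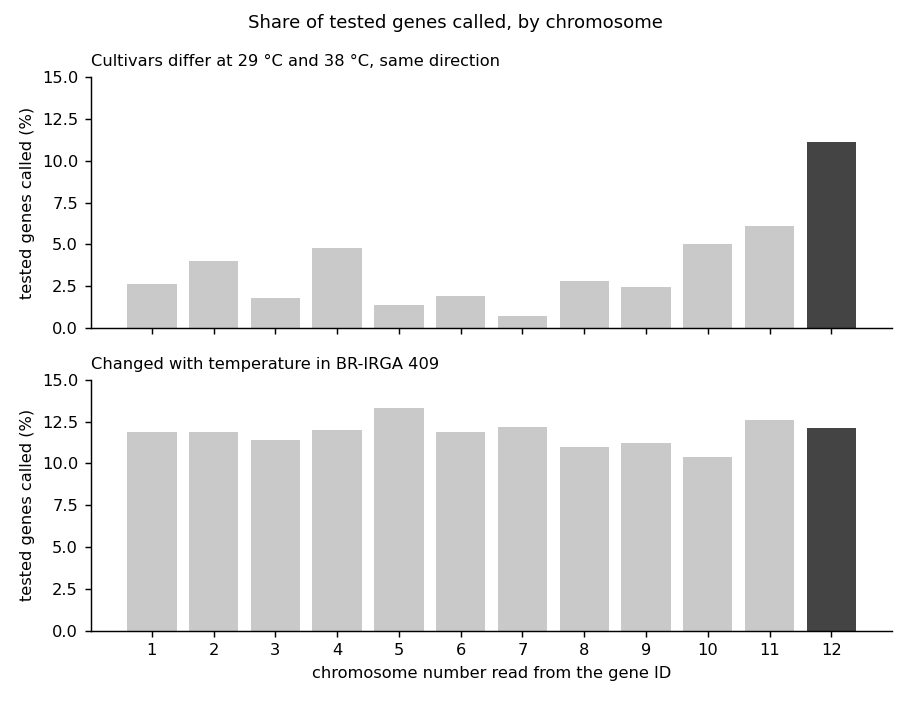
Percentage of tested genes called on each rice chromosome, by edgeR's quasi-likelihood test at an adjusted p below 0.05, between cultivars at both temperatures in the same direction and for heat in BR-IRGA 409. Chromosome 12 stands at 11.1% between cultivars and at 12.1% for heat, where the chromosomes span 10.4 to 13.3%.

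The filter lets a gene in through the cultivar where it is high, so the members were divided by whether they passed within each cultivar alone. Of the 1097 that passed in both, 66 (6.02%) were called at both temperatures, against 332 of 19961 genes (1.66%) elsewhere. Of the 50 that passed only in IRGA 428, 42 (84%) were called, against 149 of 288 (51.7%) elsewhere. Of the 56 that passed only in BR-IRGA 409, 26 (46.4%) were called, against 135 of 790 (17.1%) elsewhere. These classes were set by level in 1 cultivar, so their counts are a description. The 6 that passed in neither cultivar alone had 0 calls. Among the 991 members with a mean of at least 1 CPM in each group, 53 (5.35%) were called, against 1.7% of all genes at that level and 1.5% elsewhere.

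Members with no read in 1 cultivar were part of the difference. In BR-IRGA 409 22 tested members had 0 counts in all 6 libraries, with 55 to 2649 counts (median 297.5) summed over the other cultivar, and 20 of them were called at both temperatures. In IRGA 428 9 members had 0 counts, with 145 to 1423 (median 399) in BR-IRGA 409, and all 9 were called. Such members passed the filter only through the other cultivar, so their calls were largely set in advance and are a description. Together the members at 0 counts in a cultivar are 2.56% of the members, against 0.611% of tested genes elsewhere, 2.53% on chromosome 11 and 1.65% on chromosome 10. A count of 0 says that no read was assigned, and a missing gene, a sequence too different to align and a gene that is not transcribed cannot be told apart here.

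The clearest of these was MH12g0054800. It had 25.8, 24.0 and 24.4 CPM in IRGA 428 at 29 °C, 28.2, 22.2 and 25.03 CPM at 38 °C, and 0 counts in every BR-IRGA 409 library. Taking 3 counts over the group at 0 as the floor, it was at least 1500-fold higher in IRGA 428 over both temperatures. MH12g0170500 lay between 7.21 and 13.3 CPM in IRGA 428 and was at least 616.8-fold higher there. The opposite pattern was that of MH12g0318100, with 0 counts in IRGA 428 and 8.99, 8.06, 8.07, 7.00, 8.58 and 7.602 CPM in BR-IRGA 409, where it was at least 279.2-fold higher, and of MH12g0407200, between 4.16 and 9.22 CPM and at least 264.3-fold higher. Bounds and intervals here cover counting error only.

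Other members were read in both cultivars and still differed many-fold. MH12g0401000 had 21.1, 26.3 and 18.9 CPM in IRGA 428 at 29 °C and 18.2, 22.5 and 21.9 CPM at 38 °C, against 0.277, 0.264 and 0.378 CPM and 0.498, 0.469 and 0.497 CPM in BR-IRGA 409. The cultivars were far apart at each temperature (log2 difference −6.19, SE 0.23, edgeR adjusted p = 1.67e-07 at 29 °C and −5.40, SE 0.18, edgeR adjusted p = 5.52e-08 at 38 °C). MH12g0239300 was alike, at 15.7 to 19.3 CPM in IRGA 428 and 0.128 to 0.332 CPM in BR-IRGA 409 (log2 differences −6.08 and −6.12). Higher in BR-IRGA 409 was MH12g0324500, at 8.57, 12.8 and 9.46 CPM at 29 °C and 20.1, 17.1 and 18.0 CPM at 38 °C, against 0.102 to 0.635 CPM in IRGA 428 (log2 difference 4.65, SE 0.34, edgeR adjusted p = 1.38e-05 and 5.09, SE 0.32, edgeR adjusted p = 2.67e-06).

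Among members with at least 1 CPM in every group, MH12g0401400 and MH12g0373200 had the largest differences towards IRGA 428. MH12g0401400 lay at 19.04 to 28.9 CPM there and 1.01 to 2.82 CPM in BR-IRGA 409 (log2 differences −3.49, SE 0.34, and −3.43, SE 0.31), and MH12g0373200 at 10.6 to 20.8 and 1.12 to 2.07 CPM (−3.36 and −3.40). Towards BR-IRGA 409 these were MH12g0134400, at 1.40 to 2.23 CPM in IRGA 428 and 7.06 to 13.1 CPM in BR-IRGA 409 (2.23 and 2.80), and MH12g0454100, at 2.42 to 4.06 and 11.0 to 20.9 CPM (2.68 and 2.18). None of these ranges overlapped. The calls of the 11 members named in this and the preceding paragraphs on cultivar differences, MH12g0174100 and MH12g0456300 aside, held at both temperatures in all 23 alternative settings. They were chosen for large called differences without overlap or for 0 counts in a cultivar. Holding in refits of the same libraries was thus largely set by that choice.

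**Figure D2:**
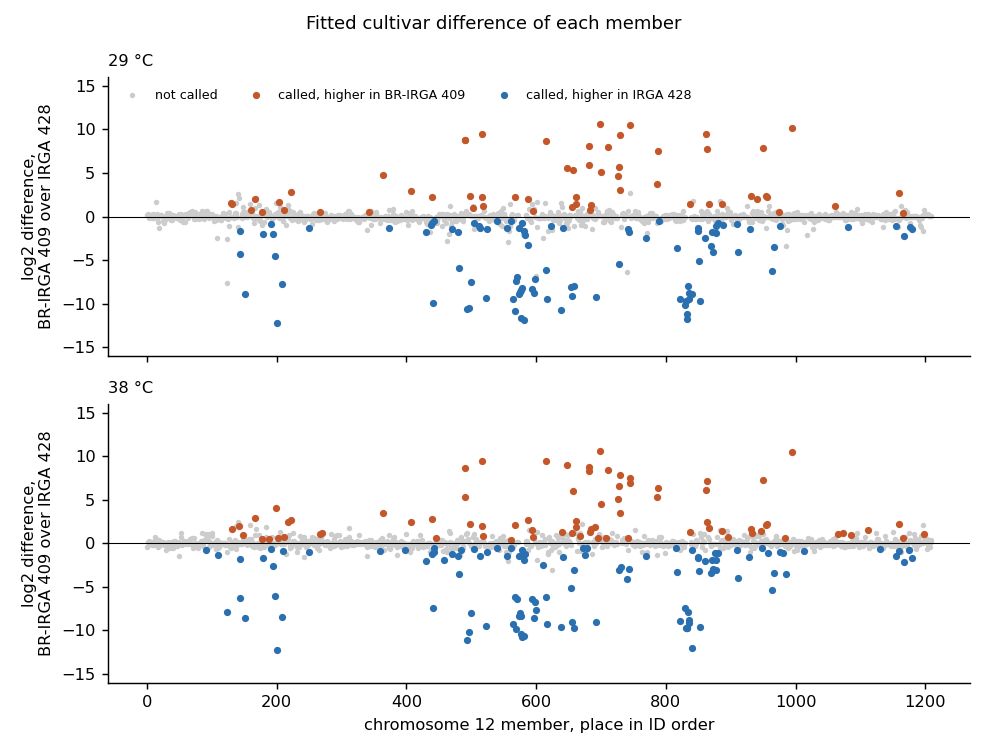
Fitted log2 difference between the cultivars for each of the 1209 members in ID order, at 29 °C (top) and 38 °C (bottom); colours mark members called by edgeR and grey points the rest. Called members lie along much of the order, 153 at 29 °C and 190 at 38 °C, and the points farthest from 0 are members with 0 or few counts in 1 cultivar.

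Cultivar differences were unevenly spread along the order. The members were divided into 30 consecutive blocks of 40, the last of 49. The share called at both temperatures ran from 0 to 52.5% per block with a median of 8.75%, and 8 blocks had none. The 528 blocks of the other chromosomes had a median of 0 and a highest share of 42.5%, and 315 had none. A block was called dense where its share was at least 2 times that of the chromosome, a limit of 22.2%. Block 17, at 22.5%, lay just inside and block 18, at 20%, just outside. At that limit stood 5 of 30 blocks on chromosome 12, 5 of 33 on chromosome 11, 3 of 48 on chromosome 4, and 2 or fewer on any other. Which members stood in dense blocks depended on block size. Dense blocks of 20 held 200 members, 160 of them also in the dense blocks of 40. Dense blocks of 80 held 160 members, 120 of them also in the dense blocks of 40.

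The 5 dense blocks held 200 members (16.5%) and 67 of the 134 called at both temperatures, which follows from how they were chosen. Their direction was not used in that choice. In the dense blocks 49 had their higher level in IRGA 428 and 18 in BR-IRGA 409, and in the other blocks 35 and 32. Members at 0 counts numbered 16 in BR-IRGA 409 and 3 in IRGA 428 inside the dense blocks, and 6 and 6 outside. These blocks also had fewer tested genes per listed gene, 20.2% against 40.3%, and a lower median level, 2.89 against 3.68 log2 CPM. The part of tested share and level in the cultivar difference was not tested. Blocks 11 to 17, in the middle of the order, spanned 1562 listed genes for 280 tested ones (17.9%).

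**Figure D3:**
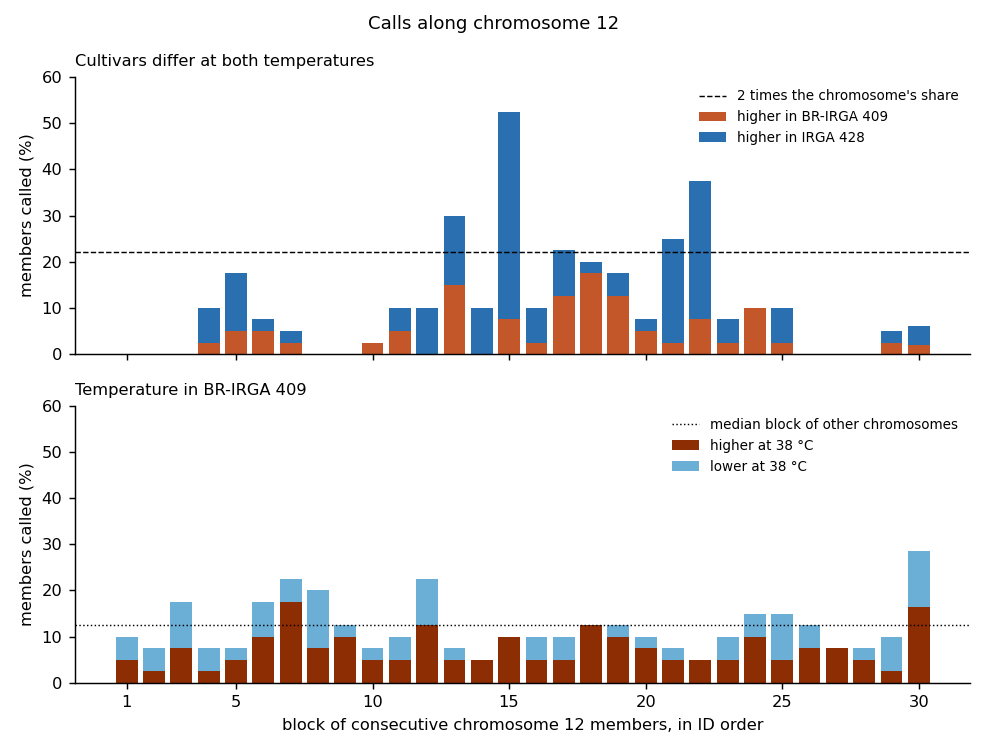
Percentage of members called in each of the 30 blocks along chromosome 12, between cultivars at both temperatures in the same direction and for heat in BR-IRGA 409. Block 15 reaches 52.5% between cultivars while 8 blocks are at 0, and the heat shares stay between 5 and 28.6%.

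The dense blocks fell into 4 segments. The densest was block 15, from MH12g0199200 to MH12g0230100, with 21 of 40 called at both temperatures, 18 higher in IRGA 428 and 3 in BR-IRGA 409, and 7 members at 0 counts in BR-IRGA 409. Of its members with the most reads, MH12g0225800 lay at 85.4 to 124 CPM in IRGA 428 and 125 to 196 CPM in BR-IRGA 409 (log2 difference 0.62 at 29 °C and 0.77 at 38 °C). MH12g0202800 lay at 3.17 to 4.19 and 14.1 to 19.4 CPM (2.21 and 2.15). The other way, MH12g0205300 lay at 94.1 to 143 CPM in IRGA 428 and 47.1 to 83.7 CPM in BR-IRGA 409 (−0.67 and −0.78), and MH12g0199200 at 28.9 to 37.1 and 20.3 to 24.5 CPM (−0.55 and −0.53). The cultivars did not overlap for any of these 4. The smaller differences depended on single libraries. The 29 °C call of MH12g0225800 was lost without IRGA 428 control 1 or 2 or treated 3, or BR-IRGA 409 control 1 or 3 or treated 3 (edgeR adjusted p 0.0539 to 0.142). That of MH12g0205300 was lost without IRGA 428 control 1 or 2 or treated 3, or any BR-IRGA 409 control or treated 2 (0.0528 to 0.137), and its 38 °C call without BR-IRGA 409 treated 1 (0.0553). That of MH12g0199200 was lost without BR-IRGA 409 control 2 (0.0554). In a fit of the 29 °C libraries alone, the calls of MH12g0225800, MH12g0205300 and MH12g0199200 at that temperature were also lost. This held without the replicate block (edgeR adjusted p = 0.162, 0.119 and 0.0851) and with it (0.0969, 0.175 and 0.132). With the replicate block over all libraries the 29 °C call of MH12g0205300 was lost too (0.0726).

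Blocks 21 and 22, from MH12g0348500 to MH12g0374400, formed the longest segment. Of 80 members 25 (31.2%) were called at both temperatures, 21 higher in IRGA 428 and 4 in BR-IRGA 409, with 6 members at 0 counts in BR-IRGA 409 and 1 in IRGA 428. MH12g0372600 lay at 74.7 to 170 CPM in IRGA 428 and 269 to 458 CPM in BR-IRGA 409 (log2 difference 1.49 and 1.70), and MH12g0360900 at 8.78 to 11.1 and 22.1 to 30.4 CPM (1.501 and 1.31). MH12g0374400 was higher in IRGA 428, at 280 to 433 CPM against 164 to 201 CPM (−0.76 and −1.12), as was MH12g0364900, at 24.7 to 64.1 against 8.58 to 18.96 CPM (−1.71 and −1.66). All 4 were separated between cultivars. The 29 °C call was lost for MH12g0372600 without IRGA 428 control 1 or 3 or BR-IRGA 409 control 2 (edgeR adjusted p 0.0614 to 0.0775), and for MH12g0374400 without any BR-IRGA 409 control (0.0675 to 0.101). For MH12g0364900 it was lost without IRGA 428 control 1 or 2 or BR-IRGA 409 control 1 or 3 (0.0604 to 0.112), and at 38 °C without treated 2 or 3 of either cultivar (0.0543 to 0.0623). In a fit of the 29 °C libraries alone the 29 °C calls of MH12g0372600, MH12g0374400 and MH12g0364900 were lost (edgeR adjusted p = 0.0757, 0.112 and 0.107), and with the replicate block there that of MH12g0374400 (0.117). Limma-voom (0.112) and edgeR on libraries thinned to the smallest (0.0528) also lost the 29 °C call of MH12g0364900.

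The other dense blocks were more even in direction. Block 13, from MH12g0155600 to MH12g0184300, had 12 of 40 called at both temperatures, 6 in each direction. There MH12g0181700 lay at 1.44 to 2.86 CPM in IRGA 428 and 7.53 to 10.4 CPM in BR-IRGA 409 (log2 difference 2.31 and 2.02), and MH12g0181800 at 3.10 to 5.38 and 5.34 to 11.2 CPM (1.17 and 0.80). MH12g0179500 lay at 44.8 to 56.4 and 16.1 to 24.8 CPM (−1.28 and −1.40), and MH12g0176600 at 33.8 to 40.7 and 17.8 to 25.5 CPM (−0.72 and −0.68). The 38 °C call of MH12g0181800 was lost in 14 of 23 alternative settings. Among these were leaving out any treated library of either cultivar or BR-IRGA 409 control 1 or 3 (edgeR adjusted p 0.0524 to 0.160). It was also lost with upper quartile scaling (0.0631), no filter (0.0558), thinning (0.0810) and the replicate block over all libraries (0.0751). Without IRGA 428 control 3 and treated 1 together it was lost as well (0.0853). In a fit of the 29 °C libraries alone the 29 °C calls of MH12g0181800 and MH12g0176600 were lost, without the replicate block (edgeR adjusted p = 0.0882 and 0.0629) and with it (0.139 and 0.0804).

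Block 17, from MH12g0260700 to MH12g0313600, had 9 of 40 called at both temperatures, 4 higher in IRGA 428 and 5 in BR-IRGA 409, and spanned 332 listed genes. MH12g0304500 lay at 19.2 to 24.99 CPM in IRGA 428 and 51.8 to 95.4 CPM in BR-IRGA 409 (log2 difference 1.498 and 1.86), and MH12g0301800 at 19.9 to 25.9 and 45.7 to 57.9 CPM (1.05 and 1.18). MH12g0262800 lay at 13.4 to 20.2 and 3.99 to 8.52 CPM (−1.32 and −1.60). MH12g0303000 had 1029 counts in IRGA 428 and 2 in BR-IRGA 409, a ratio of 874.2 on scaled library sizes (exact Clopper-Pearson 95% interval 241.4 to 7228). These 4 calls held at both temperatures in all 23 alternative settings.

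Called members were often neighbours. Of the 134 called at both temperatures, 76 stood in runs of at least 2 consecutive tested members and 58 stood alone. A called member was followed by another in 51 cases (38.1%), against 157 of 616 (25.5%) on the other chromosomes, 47.5% on chromosome 11 and 37% on chromosome 4. These percentages rest on unlike shares of called genes, 11.1% on chromosome 12, 2.92% elsewhere, 6.13% on chromosome 11 and 4.8% on chromosome 4. Neither they nor the run lengths are adjusted for this, so closer clustering on chromosome 12 is not shown. In 36 of the 51 pairs (70.6%) both differed in the same direction, against 78.3% elsewhere. The longest run had 8 members, and the longest elsewhere had 7.

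The run of 8 went from MH12g0359600 to MH12g0360900 in block 21, a stretch of 14 listed genes. Its first 7 members were read almost only in IRGA 428. Summed over both temperatures, MH12g0359600 had 741 counts in IRGA 428 and 6 in BR-IRGA 409, a ratio of 209.8 on scaled library sizes (95% interval 95.95 to 573.6). MH12g0360300 had 1067 and 1 (ratio 1813, interval 324.7 to 71670), and MH12g0360400 had 1706 and 2 (1449, 400.6 to 11980). The members MH12g0360200, MH12g0360600, MH12g0360700 and MH12g0360800 had 452, 134, 281 and 311 counts in IRGA 428 and 0 in BR-IRGA 409, which put them at least 256, 75.89, 159.1 and 176.1-fold higher. The last, MH12g0360900, went the other way, with 1071 and 4677 counts. These neighbours are named for their place in the run, after their values were seen.

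A run of 7 in block 15, from MH12g0204100 to MH12g0205300 within 13 listed genes, was higher in IRGA 428 throughout. Its ends were read in both cultivars, with 1198 and 819 counts for MH12g0204100 and 11494 and 11319 for MH12g0205300 in the more deeply sequenced BR-IRGA 409. Between them MH12g0204200, MH12g0204300 and MH12g0204500 had 206, 166 and 180 counts in IRGA 428 and 0 in BR-IRGA 409, at least 116.7, 94.01 and 101.9-fold higher. MH12g0204400 had 1616 and 1 (ratio 2746, interval 492.1 to 108500), and MH12g0205000 had 1017 and 1 (1728, 309.4 to 68320).

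Other stretches had no member called at both temperatures. The longest held 158 members, from MH12g0407700 to MH12g0452200, followed by 131 from MH12g0010100 to MH12g0041400 and 96 from MH12g0068000 to MH12g0107100. The first 3 blocks, blocks 8 and 9, and blocks 26 to 28 had none.

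The share of members changed by heat in BR-IRGA 409 was close to that of all tested genes. At 38 °C 146 members (12.1%) were called against 29 °C, 89 higher and 57 lower, beside 11.9% of all tested genes (6.72% higher and 5.13% lower) and 11.8% elsewhere. Changes of 2-fold or more numbered 73, 52 higher and 21 lower, which is 6.04% of members and 6.02% of all tested genes. The median log2 fold change was 1.26 for members that rose and −0.785 for those that fell, against 1.20 and −0.849 over all called genes. The treated and control libraries did not overlap for any of the 146, which follows largely from the call. They did not overlap for 521 members in all (43.1%, against 43.1% of all tested genes). Of the risers, 14 started from a mean below 1 CPM, and 6 of the fallers ended there.

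The number of heat calls rested on single libraries. Without BR-IRGA 409 control 1, 2 or 3 it was 8, 34 or 8 (0.662, 2.81 and 0.662%, against 0.379, 2.62 and 0.208% elsewhere). Without BR-IRGA 409 treated 1, 2 or 3 it was 6, 89 or 3 (0.496, 7.36 and 0.248%, against 0.431, 7.75 and 0.18% elsewhere). Without IRGA 428 treated 2 or 3 it was 88 or 85 (7.28 and 7.03%, against 7.02 and 6.84% elsewhere). Limma-voom called 127 (10.5%, against 9.42% elsewhere) and divided its calls differently by direction, 62 higher and 65 lower. With all libraries thinned to the smallest, 94 members were called (7.78%, against 7.3% elsewhere).

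Among called members whose mean log2 CPM was 1 or more and whose temperatures did not overlap, the largest changes were found in separate blocks. MH12g0399900 had 3.59, 4.36 and 2.40 CPM at 29 °C and 35.5, 25.3 and 33.9 CPM at 38 °C in BR-IRGA 409, a log2 fold change of 3.16 (SE 0.84, edgeR adjusted p = 0.0395). MH12g0213200 rose from 0.277, 0.727 and 0.504 CPM to 4.76, 4.56 and 4.66 CPM (3.09, SE 0.67, edgeR adjusted p = 0.0245). Neither overlapped between temperatures, which was a condition of the choice. In IRGA 428 MH12g0399900 had 0.406, 17.3 and 8.19 CPM at 29 °C and 8.47, 30.8 and 29.3 CPM at 38 °C, which overlapped, and MH12g0213200 had 0.813, 8.02 and 6.03 against 8.90, 8.23 and 6.80 CPM. IRGA 428 control 1 was the lowest control library for both.

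Among members that fell, MH12g0048100 had 19.9, 9.64 and 16.8 CPM at 29 °C and 1.63, 2.41 and 2.70 CPM at 38 °C in BR-IRGA 409, a log2 fold change of −2.76 (SE 0.66, edgeR adjusted p = 0.0299). MH12g0454400 fell from 5.12, 6.34 and 5.04 CPM to 1.22, 1.30 and 1.02 CPM (−2.23, SE 0.32, edgeR adjusted p = 0.00934). Both were separated between temperatures, as the choice required. In IRGA 428 MH12g0048100 had a log2 fold change of −2.29 (edgeR adjusted p = 0.401) and MH12g0454400 of −0.07 (edgeR adjusted p = 0.931). The call of MH12g0454400 was lost without BR-IRGA 409 treated 3 (edgeR adjusted p = 0.0602). Those of MH12g0048100 and MH12g0399900 were lost without any 1 of the BR-IRGA 409 libraries (0.0533 to 0.111 and, with IRGA 428 treated 2 or 3 also deciding, 0.0553 to 0.125), and that of MH12g0213200 without any BR-IRGA 409 control or treated 1 or 3 (0.0584 to 0.0907). Under limma-voom the calls of MH12g0399900 (adjusted p = 0.0812) and MH12g0213200 (0.0553) were lost, and with no filter in edgeR those of MH12g0399900 (0.0913) and MH12g0048100 (0.0524).

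In IRGA 428 edgeR called 0 members for heat, as it called 0% of all tested genes, and the smallest adjusted p was 0.401. At an unadjusted p below 0.05 there were 117 members (9.68%), against 11.7% of all tested genes. The temperatures did not overlap for 139 members (11.5%, against 11.5% of all). Without IRGA 428 control 3 the count of calls was 67 (5.54%, against 6.91% elsewhere), and without control 3 and treated 1 together it was 57 (4.71%, against 5.68% elsewhere). The fold changes in the cultivars share no library. Over all tested members, 897 of 1209 (74.2%, against 75.6% elsewhere) had the same sign in both. Of the 89 members that rose in BR-IRGA 409, 88 had a positive log2 fold change in IRGA 428 (98.9%, against 95.6% elsewhere). Their medians were 1.26 in BR-IRGA 409 and 0.545 in IRGA 428, against 1.19 and 0.464 elsewhere. Of the 57 that fell, 51 had a negative one (89.5%, against 92.5% elsewhere). Medians here were −0.785 and −0.246, against −0.857 and −0.340 elsewhere. All these genes were chosen by their call in BR-IRGA 409, which favours larger sizes there, so the medians do not compare the cultivars. Whether the sizes differed was tested per gene by the interaction.

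**Figure D4:**
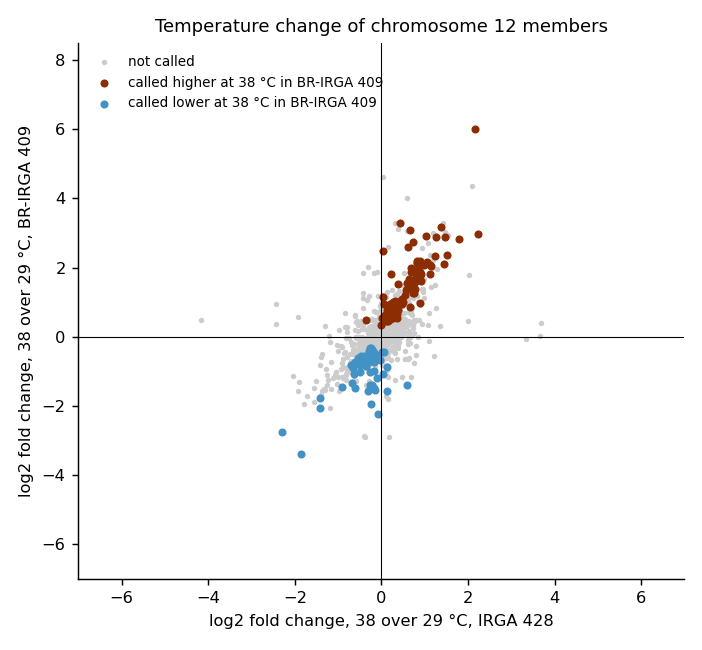
Log2 fold change at 38 °C over 29 °C for each member in IRGA 428 and in BR-IRGA 409, with members called in BR-IRGA 409 by edgeR in colour and the rest in grey. Of the 89 members that rose in BR-IRGA 409, 88 lie above 0 in IRGA 428, and of the 57 that fell, 51 lie below 0.

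Heat calls in BR-IRGA 409 were found in all 30 blocks. Per block they ran from 5 to 28.6% with a median of 10%, and on the other chromosomes from 0 to 32.5% with a median of 12.5%. The 5 dense blocks had 16 of 200 (8%), 12 higher and 4 lower, against 12.9% in the other blocks; this difference was not tested. The highest block was the last, with 14 of 49, 8 higher and 6 lower.

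The heat response differed between the cultivars for 1 member by the interaction test (0.0827% of members, against 0.00448% of all tested genes and 0% elsewhere). At an unadjusted p below 0.05 there were 79 members (6.53%, against 5.54% of all). The called member, MH12g0324600 in block 19, had 23.6, 24.9 and 29.0 CPM at 29 °C and 24.0, 29.7 and 26.01 CPM at 38 °C in IRGA 428. In BR-IRGA 409 it had 0.553, 0.660 and 0.504 CPM at 29 °C, from 4, 10 and 4 counts, and 3.54, 3.06 and 3.25 CPM at 38 °C. It thus rose with heat in BR-IRGA 409 from a low level, by 2.47 on the log2 scale (SE 0.19, edgeR adjusted p = 0.00103), and stayed below IRGA 428 at both temperatures (log2 difference −5.45 and −3.02). The difference between the responses was 2.43 (SE 0.23, edgeR adjusted p = 0.00955). That call was lost without IRGA 428 treated 3 (edgeR adjusted p = 0.0626) or BR-IRGA 409 control 1, 2 or 3 (0.0748, 0.0551 and 0.0787), without IRGA 428 control 3 and treated 1 together (0.0755), under limma-voom (0.148) and with the replicate block (0.0877).

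MH12g0324600 stood in a run of 5 called members, from MH12g0324500 to MH12g0325000, within 6 listed genes. The others were all higher in BR-IRGA 409. Summed counts in IRGA 428 and BR-IRGA 409 were 52 and 3093 for MH12g0324500, 22 and 4041 for MH12g0324700, 10 and 215 for MH12g0324800, and 1 and 809 for MH12g0325000. MH12g0324700 also rose with heat in BR-IRGA 409, from 4.93 ± 0.884 CPM (SD, n = 3) to 25.5 ± 2.50 CPM, by 2.36 on the log2 scale (SE 0.43, edgeR adjusted p = 0.0180), and lay at 0.0770 and 0.249 CPM in IRGA 428. The tested members on either side of this stretch had no called difference between cultivars at 29 °C. MH12g0324300 lay at a mean of 15.8 to 17.4 CPM in the 4 groups, and MH12g0325100 was called only at 38 °C, at 2.32 CPM in IRGA 428 and 0.327 CPM in BR-IRGA 409. MH12g0325200 lay at 70.4 to 103.7 CPM with no call. Apart from MH12g0324500 and MH12g0324600, these neighbours were named after their values were seen.

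**Figure D5:**
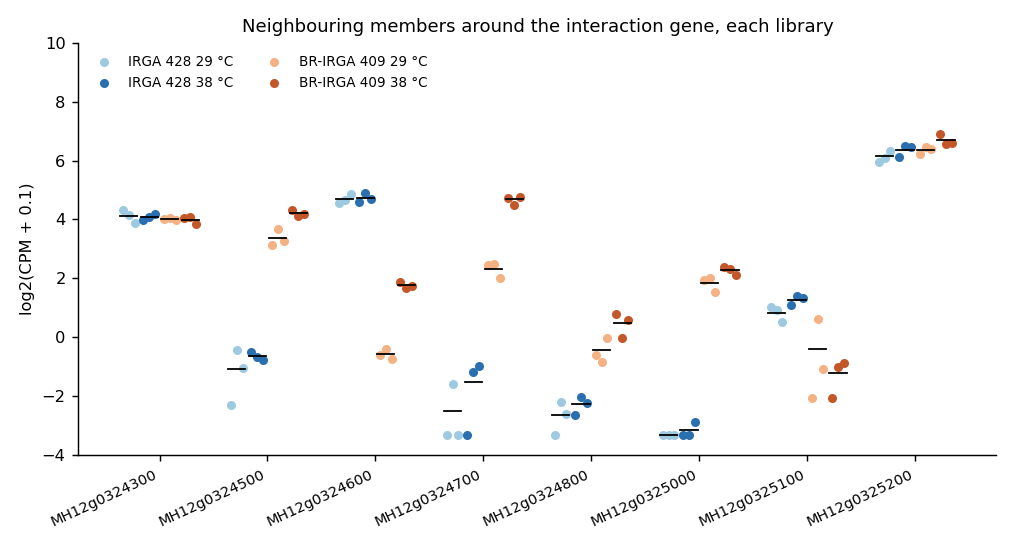
Level of each tested member around MH12g0324600 in every library, as log2(CPM + 0.1), with points for libraries, a line for the log2 of the group mean plus 0.1, and colours for the 4 groups. MH12g0324600 is at 23.6 to 29.7 CPM in IRGA 428 and rises from about 0.573 to 3.29 CPM in the mean with heat in BR-IRGA 409, while MH12g0324500 and MH12g0324700 are higher in BR-IRGA 409.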

How the data were processed

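The authors deposited 1 file of raw, unnormalized gene counts for each library. Per the submitters' processing notes, Trimmomatic 0.33, HISAT2 2.05 and HTSeq 0.6.1 were used. Parameters, genome build, annotation and strand use were not given in the sources used here, so reads of overlapping antisense genes may not be told apart. Each file listed 57174 genes and 5 closing lines that name no gene, which were left out. Reads with several alignments are not in gene counts, so members with near-identical copies are uncertain. Of the IDs, 0 matched the rice reference table used here, so no name, coordinate or sequence is printed.

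The analysis used edgeR 4.0.16 (R 4.3.3): filterByExpr, scaling by trimmed mean of M-values, 1 mean per group over all 12 libraries (8 residual degrees of freedom), the robust quasi-likelihood F-test, and Benjamini-Hochberg adjustment over all 22321 tested genes, with genes called at an adjusted p below 0.05. Cultivar differences are BR-IRGA 409 over IRGA 428. The SE beside a log2 value was worked back as its size over the square root of the test's F statistic. It is approximate and need not match the p-value. The model was tested on simulated data. A library pools 2 plants; nothing states that replicates are otherwise paired. Same-numbered libraries deviated together at 29 °C (r = 0.259, 0.314 and 0.180 across all tested genes, which are not independent), so the blocked count is given for that comparison.

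Each list names no more than 2 higher and 2 lower IDs: the largest called changes whose mean log2 CPM was 1 or more, with no overlap; the same among members of at least 1 CPM in every group; the highest members with 0 counts in a cultivar; the members with the most reads called in each dense segment; and the 2 with the most reads overall. Neighbours in runs and the first and last IDs of stretches mark position. Folds against 0 counts use 3 counts over the group as the floor; other low counts have an exact Clopper-Pearson 95% interval. Members and lists were chosen with earlier results of these data known. Alternatives covered limma-voom (limma 3.58.1), DESeq2 1.42.0, changed scalings, filters and thresholds, fits of the compared groups alone, a replicate block, thinning, other block sizes, and leaving out libraries.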

Additional observations from a re-analysis of the deposited data

Results flagged for a closer look

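The heat response of MH12g0324600 differed between the cultivars by 2.43 on the log2 scale (BR-IRGA 409 minus IRGA 428; SE 0.23, edgeR adjusted p = 0.00955). It was picked out because the difference between the responses was itself tested, by the interaction term over all 12 libraries. All 3 treated libraries of BR-IRGA 409 lay above its 3 controls, and the temperatures overlapped in IRGA 428. The BR-IRGA 409 controls rest on 4, 10 and 4 counts. The call held in 14 of 21 alternative settings, with log2 values from 2.27 to 2.83.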

How the results depend on the processing

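Counts of called members (main values in the report) moved by over 1.5 times as follows. DESeq2 was run without the filter, so its counts cover all listed chromosome 12 genes and not the members alone. For heat in BR-IRGA 409 it called 258 of these (7.3%, against 8.23% elsewhere). Among members the count was 263 (21.8%, against 22.1% elsewhere) with only the groups compared. Without IRGA 428 control 3 and treated 1 it was 254 (21%, against 21.2% elsewhere). It was 94 (7.78%, against 7.3%) with thinned libraries and 4 (0.331%, against 0.223%) at an adjusted p below 0.01. Single libraries left out gave 3 to 211 (0.248 to 17.5%, against 0.18 to 18.3% elsewhere). For heat in IRGA 428 the count was 57 (4.71%, against 5.68% elsewhere) without control 3 and treated 1. It was 0 to 67 (0 to 5.54%, against 0 to 6.91% elsewhere) with single libraries left out. For the interaction DESeq2 called 5 of the listed chromosome 12 genes (0.141%, against 0.069% elsewhere). Among members the count was 0 with limma-voom, with the replicate block in all libraries and without that pair of libraries. It was also 0 among members of at least 1 CPM in each group, and 0 to 1 with single libraries left out. Between cultivars at 29 °C it was 100 (8.27%, against 1.75% elsewhere) with only the groups compared. With the replicate block there it was 81 (6.7%, against 1.51%). It was 100 (8.27%, against 1.96%) at an adjusted p below 0.01 and 71 (7.16%, against 2.08%) among members at 1 CPM or more. At 38 °C it was 84 (6.95%, against 1.92%) with that block and 93 (9.38%, against 4.05%) at 1 CPM or more. At both temperatures it was 61 (5.05%, against 1%) and 53 (5.35%, against 1.5%). Single libraries left out gave 113 to 155, 146 to 222 and 103 to 131. As shares of members these were 9.35 to 12.8%, 12.1 to 18.4% and 8.52 to 10.8%. Elsewhere the shares were 2.4 to 4.11%, 3.61 to 7.89% and 2.16 to 3.04%. Nothing states that numbers pair libraries. Between cultivars, same-numbered libraries correlated at 0.259, 0.314 and 0.180 at 29 °C, and at −0.334, −0.357 and 0.112 at 38 °C. Between temperatures they correlated at 0.250, 0.577 and −0.160 in IRGA 428, and at −0.0888, −0.305 and 0.112 in BR-IRGA 409. With the replicate block in a fit of the 38 °C libraries alone, the 38 °C calls of MH12g0181800, MH12g0176600, MH12g0225800, MH12g0205300, MH12g0199200, MH12g0372600, MH12g0374400 and MH12g0364900 were lost (edgeR adjusted p 0.0513 to 0.161). Dense blocks held 120 members when only those of at least 1 CPM counted as called, against 200.

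Of 1355 values of named members under alternatives, 1257 kept their call, 98 lost it and 0 reversed. All had been called in the main fit, so keeping the call follows partly from how the members were chosen. The cause of the shifts in counts and calls was not tested. Depth limits members near 0 counts, above all in the BR-IRGA 409 controls.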
